A study of Macaca mulatta with 29 samples.

Results

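The vehicle libraries of this study show what a primate embryonic stem cell line expressed when it had met only the solvent. They were chosen by the sample label alone, as the libraries whose agent was methanol, and they were 5 of 29 libraries. The cells were ORMES-6, an embryonic stem cell line of the rhesus macaque, grown as colonies on feeder layers of mouse embryonic fibroblasts that could no longer divide, in medium with 15% fetal bovine serum, 5% CO2 and 5% O2. The vehicle plate received methanol for 4 weeks. The other plates received atrazine at 30 uM, bisphenol A at 10 nM, DEHP (a phthalate ester) at 5 uM, PFOA (perfluorooctanoic acid) at 100 nM or tributyltin at 25 nM, made up in the same solvent, with 5 libraries each and 4 for DEHP. Each treatment had 1 plate of 6 wells, and about 40 randomly taken colonies were moved to fresh feeders at each passage. The labels give 3 passages for every library. RNA came from the pooled colonies of 1 well, lifted some 24 h after fresh medium. A replicate is therefore a well of 1 plate of 1 line, and the labels do not say that wells were started from separate cultures, so each SD below measures the spread between these wells, which may be technical. A difference between plates and a difference between treatments cannot be told apart.

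Embryonic stem cells divide without limit and can form every tissue of the body. A core of transcription factors, among them POU5F1 (OCT4), SOX2 and NANOG, holds that state and keeps lineage genes off. Primate lines usually resemble the epiblast shortly before gastrulation, a state called primed, which depends on FGF and activin or NODAL signals, whereas the naive state of the earlier epiblast has its own set of factors. The lines rely on glycolysis and have a short G1 phase, and whether they carry the receptors and enzymes that meet a foreign compound decides which routes such a compound could use.

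Levels are FPKM, fragments per kilobase of transcript scaled to the number mapped in each library, so levels may be compared between genes. The table held 16048 genes under human symbols, and 11051 of them (68.9%) had a vehicle mean of at least 1 FPKM, the level used below to call a gene present. Counts of present genes on a list are to be read beside that 68.9%. A further 1022 genes (6.37%) were listed at 0 in all 5 wells. At least 1 FPKM was reached in all 5 wells by 10569 genes, in 1 to 4 wells by 944 and in no well by 4535. The median gene had 4.87 FPKM, 780 genes had at least 100 FPKM and 82 had at least 1000. Absolute depth is unknown, but the lowest values rise in steps worth 1 read each. By those steps wells 1 to 5 had 69.9%, 100%, 78.5%, 76.1% and 47.7% of the depth of the deepest well, well 2, where the median low gene had 0.0323 FPKM per read. Wells resembled each other, with a Pearson r between 0.989 and 0.995 for log2(FPKM + 1) across the 16048 genes in the 10 pairs of wells, which is a correlation across genes and not across samples.

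**Figure D1:**
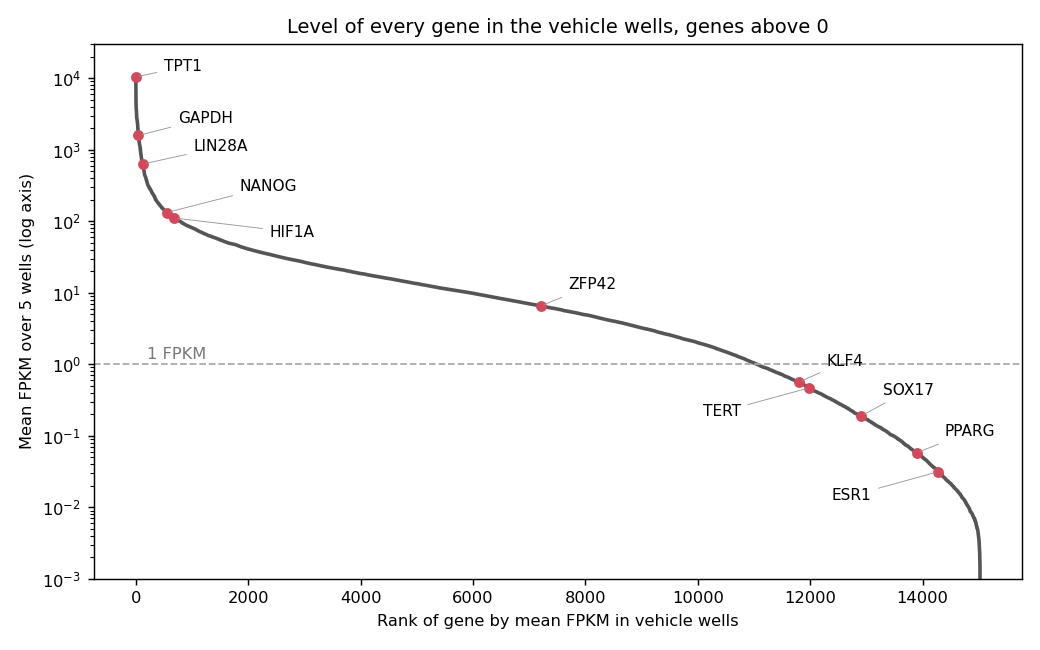
Mean level of each gene over the 5 vehicle wells (y axis, FPKM, log scale) against its rank (x axis), for genes above 0; the dashed line marks 1 FPKM and red points mark named genes. TPT1 stood first at 10374 FPKM, the stem cell genes LIN28A and NANOG lay above 100 FPKM, and ESR1 and PPARG lay below 0.1 FPKM.

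The most abundant messages were those of the translation apparatus. TPT1, which encodes a small translationally controlled protein, ranked first and had 10136, 10760, 9398, 9252 and 12322 FPKM in wells 1 to 5. It was highest in well 5 and lowest in wells 3 and 4, and alone it took 1.97% ± 0.135 (SD, n = 5) of the summed FPKM. RPS27, a protein of the small ribosomal subunit, came next with 6361, 6543, 3747, 4144 and 5549 FPKM, again lowest in wells 3 and 4. Ribosomal protein genes made up 17 of the 25 most abundant genes and 57 of the 100 most abundant. The other top genes were NPM1 (3325 ± 408 FPKM) and NCL (2749 ± 347 FPKM), which encode nucleolar proteins, PTMA (3294 ± 515 FPKM), a small acidic nuclear protein, SSB (3024 ± 257 FPKM), an RNA-binding protein, EEF1A1 (2663 ± 453 FPKM), which brings aminoacyl-tRNA to the ribosome, TMSB10 (2545 ± 987 FPKM), which binds actin monomers, and HSP90AB1 (2508 ± 458 FPKM), a chaperone. The 100 most abundant genes held 36.8% ± 2.07 of the summed FPKM. Ribosomal protein genes, TPT1, NPM1, PTMA and EEF1A1 have many near-identical processed copies in primate genomes, so their values are uncertain as far as the counting could split such reads.

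Abundant gene groups differed between wells together. All 75 ribosomal protein genes took 27.1%, 27.0%, 21.8%, 22.2% and 25.3% of the summed FPKM in wells 1 to 5. The 74 subunit genes of the respiratory chain and ATP synthase took 2.49%, 2.47%, 2.01%, 1.99% and 2.48%, and the 65 clustered histone genes 2.25%, 1.85%, 1.33%, 1.69% and 2.23%. Wells 3 and 4 were the lowest for all 3 groups. The summed share of the 25 core pluripotency genes ran the other way, with 0.667%, 0.660%, 0.771%, 0.820% and 0.675%, highest in wells 3 and 4. Its members did not move together. By FPKM, LIN28A, L1TD1 and PHC1 were highest in wells 3 and 4, while POU5F1 and NANOG were lowest there. Shares of a sum are not independent of each other. In a library made from a whole well, fewer cells that express a gene and less RNA per cell cannot be told apart.

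The markers of the labelled cell type, POU5F1, NANOG, SOX2, LIN28A and DNMT3B, were all above 100 FPKM in every well. POU5F1 had 478, 672, 452, 428 and 586 FPKM in wells 1 to 5, a mean of 523 ± 103 FPKM (SD, n = 5). Well 2 was the highest and well 4 the lowest; POU5F1 has processed copies in primate genomes too. NANOG was steadier, at 140, 141, 125, 123 and 131 FPKM, and its wells spanned a narrow range. SOX2 had 136, 108, 119, 142 and 115 FPKM, with wells 1 and 4 above the rest. LIN28A, an RNA-binding protein that blocks the maturation of let-7 microRNAs, had 514, 603, 722, 703 and 602 FPKM. DNMT3B, a de novo DNA methyltransferase, had 314, 367, 406, 471 and 416 FPKM. Both were lowest in well 1, and their highest wells were 3 and 4, in that order.

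The wider core list held 27 genes, and 25 of them had a row in the table. A mean of at least 1 FPKM was reached by 24, against 68.9% of all genes, and the median member had 90.0 FPKM, against 4.87 FPKM for all genes. TDGF1, the co-receptor of NODAL, stood at 562 ± 67.2 FPKM. TERF1, a telomere-binding protein, had 312 ± 26.3 FPKM, L1TD1, an RNA-binding protein of stem cells, 249 ± 43.8 FPKM, and PHC1, a Polycomb protein, 128 ± 9.61 FPKM. USP44, a deubiquitinase, had 152 ± 17.1 FPKM and TRIM71, a ubiquitin ligase and RNA-binding protein, 103 ± 15.2 FPKM. The zinc finger factors SALL4 (90.0 ± 7.84 FPKM) and SALL2 (68.5 ± 4.20 FPKM) followed. At the low end were FOXD3 (3.04 ± 0.668 FPKM), UTF1 (2.29 ± 0.693 FPKM) and GDF3 (1.76 ± 0.608 FPKM). TERT, the catalytic subunit of telomerase, was the only measured member under 1 FPKM, with 0.650, 0.313, 0.578, 0.370 and 0.427 FPKM in wells 1 to 5, so no well reached the threshold.

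Genes tied to the primed state were present and most genes tied to the naive state were not. Of 19 measured genes on the primed list 18 had at least 1 FPKM, with a median of 34.0 FPKM. CD24, a surface glycoprotein, led with 433 ± 84.0 FPKM. ZIC2, a zinc finger factor, had 98.3 ± 16.0 FPKM, and OTX2, a homeobox factor of the epiblast and forebrain, had 46.1, 53.4, 57.8, 57.4 and 61.3 FPKM in wells 1 to 5, lowest in well 1. DNMT3A had 88.0 ± 6.63 FPKM, SFRP2, a secreted WNT antagonist, 65.8 ± 7.44 FPKM, CDH2 (N-cadherin) 52.6 ± 4.88 FPKM and SOX11 37.0 ± 4.85 FPKM. FGF4 was the exception, at 0.110 FPKM, which came to 2, 2, 3, 1 and 0 reads in wells 1 to 5.

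On the naive list 7 of 19 measured genes reached 1 FPKM, and the median was 0.458 FPKM. PRDM14, a transcriptional repressor that human lines of either state express, had 50.4, 58.3, 58.2, 73.7 and 56.6 FPKM, highest in well 4. DPPA5 had 72.6, 47.1, 57.5, 62.6 and 33.3 FPKM, highest in well 1 and lowest in well 5. ZFP42 (REX1) followed the same order at its ends, with 9.77, 5.85, 5.99, 7.37 and 3.70 FPKM. DPPA3, a maternal and germline chromatin protein, had 6.25, 3.39, 3.91, 4.11 and 3.42 FPKM. ARGFX, a homeobox gene of the early embryo, had 4.29 ± 1.64 FPKM, and TFAP2C, an AP-2 factor, 3.57 ± 0.674 FPKM. KLF5 sat at the threshold with 1.08 ± 0.404 FPKM, with well 5 below it at 0.525 FPKM. The other Krüppel-like factors of the naive network were lower, KLF4 at 0.560 ± 0.146 FPKM and KLF17 at 0.508 ± 0.222 FPKM. TFCP2L1 had 0.315 ± 0.0392 FPKM, DNMT3L, a cofactor of the de novo methyltransferases, 0.223 ± 0.131 FPKM, and the orphan receptor gene ESRRB 6 reads over all wells. TBX3, NR0B1 and HORMAD1 were listed at 0 in all 5 wells.

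Surface and adhesion genes of epithelial stem cell colonies were present without exception, 18 of 18 measured. CLDN6, a tight junction protein of early embryonic epithelium, had 302 ± 42.6 FPKM, and GJA1 (connexin 43), a gap junction protein, 223 ± 12.8 FPKM. The laminin-binding integrin subunits ITGB1 and ITGA6 had 137 ± 23.2 and 130 ± 22.8 FPKM. EPCAM, an epithelial adhesion molecule, had 47.9 ± 2.75 FPKM, with wells between 44.3 and 51.0 FPKM. CDH1 (E-cadherin) had 25.3, 31.1, 34.0, 35.8 and 31.1 FPKM, lowest in well 1, and ALPL, the alkaline phosphatase used to stain such colonies, had 36.3 ± 2.77 FPKM.

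**Figure D2:**
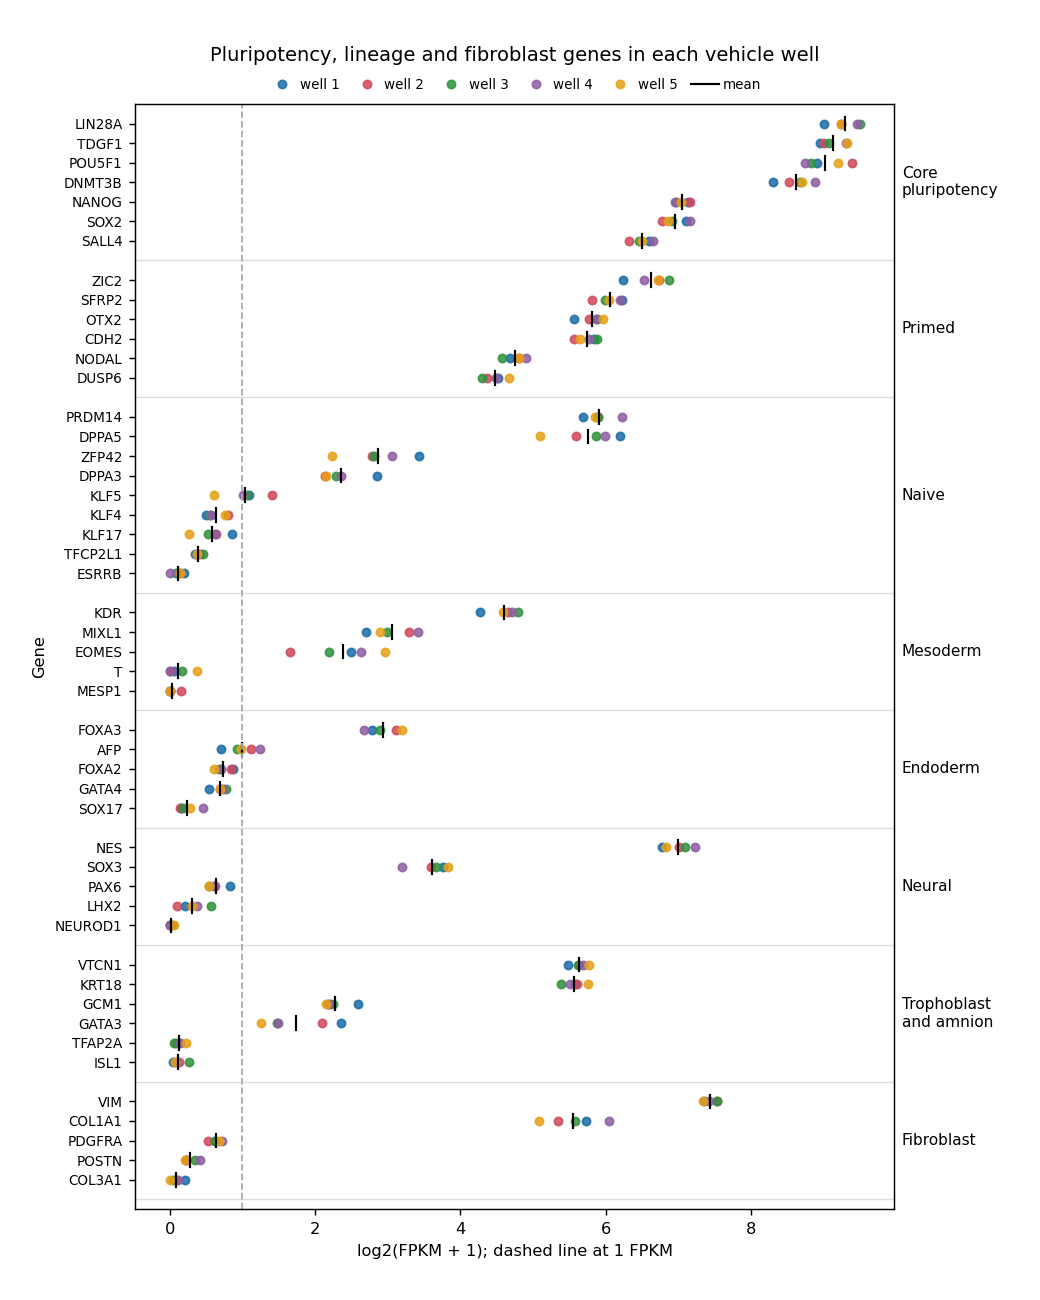
log2(FPKM + 1) in each of the 5 vehicle wells (colours) and its mean (black bar) for genes of the pluripotency states, the germ layers, trophoblast and amnion, and fibroblasts; the dashed line marks 1 FPKM. Core and primed genes lay to the right of the line in every well, while KLF4, T, MESP1, SOX17, PAX6 and COL3A1 lay to its left in every well.

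Lineage genes were mostly under 1 FPKM, and each germ layer list had a smaller share of present genes than the table as a whole (68.9%). For mesoderm 7 of 21 genes were present. KDR, a VEGF receptor, was the highest with 18.2, 24.2, 26.6, 25.1 and 23.0 FPKM, lowest in well 1. The primitive streak factors MIXL1 and EOMES had 7.48 ± 1.73 and 4.46 ± 1.74 FPKM. EOMES ranged widely for so low a gene, with 4.62, 2.14, 3.55, 5.20 and 6.77 FPKM, lowest in well 2 and highest in well 5. T (brachyury), the classical streak gene, had 0.0914 FPKM, made of 2, 0, 7, 0 and 10 reads in wells 1 to 5, so nearly all of its reads came from wells 3 and 5. MESP1 averaged 0.0232 FPKM, and MSGN1 and NKX2-5 were listed at 0.

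Endoderm genes were present in 6 of 19 cases, only 2 of them at 2 FPKM or more, and none reached 10 FPKM. FOXA3, a forkhead factor of liver and gut, was the highest with 6.70 ± 1.19 FPKM. APOA1, an apolipoprotein, had 3.92, 2.49, 1.90, 0.655 and 2.44 FPKM, with well 4 under the threshold. AFP, a fetal serum protein, sat on the threshold with 1.01 ± 0.278 FPKM. The endoderm regulators FOXA2 (0.674 ± 0.130 FPKM), GATA4 (0.611 ± 0.0990 FPKM) and SOX17 (0.188 ± 0.114 FPKM) were below it, and TTR, APOA2, ALB and CDX2 were listed at 0 in all wells.

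Neuroectoderm genes were present in 9 of 24 cases. NES, an intermediate filament of neural progenitors that stem cell colonies also express, had 109, 128, 135, 149 and 113 FPKM, highest in well 4. OTX2, described above, is shared with the primed list. SOX3, a relative of SOX2, had 11.3 ± 1.95 FPKM and MAP2, a microtubule-associated protein, 9.91 ± 1.88 FPKM. PAX6, an early neural regulator, stayed under 1 FPKM in all wells, with 0.770, 0.547, 0.461, 0.531 and 0.459 FPKM. The neuronal factor NEUROD1 (0.0136 FPKM) was close to 0.

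Trophoblast and amnion genes were present in 10 of 21 cases. VTCN1, a B7 family surface protein found on trophoblast and amnion, had 43.6, 48.8, 48.0, 50.6 and 53.6 FPKM, with little spread. The simple epithelial keratins KRT8 and KRT18 had 48.2 ± 5.89 and 46.6 ± 4.49 FPKM; keratin genes also have processed copies. TEAD4 had 10.7 ± 1.08 FPKM and GCM1, a syncytiotrophoblast factor, 3.87 ± 0.650 FPKM. GATA3 had 4.13, 3.26, 1.79, 1.82 and 1.39 FPKM, higher in wells 1 and 2 than in the others. TFAP2A (20 reads over all wells) and ISL1 (15 reads) were near 0, and CDX2, CGA and WNT6 were listed at 0.

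Germ cell genes were present in 8 of 16 cases, 5 of them at 2 FPKM or more, led by DND1, an RNA-binding protein, at 15.6 ± 2.14 FPKM. The germline genes DDX4 (0.314 ± 0.0577 FPKM) and DAZL (0.235 ± 0.100 FPKM) stayed below the threshold. Blood and endothelial genes were present in 3 of 12 cases, namely the angiopoietin receptor TEK (9.95 ± 2.47 FPKM), CD68 (3.85 ± 1.65 FPKM) and CDH5 (1.39 ± 0.236 FPKM), and the globin genes HBB and HBE1 were listed at 0.

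Fibroblast genes were split. Of 23 measured genes 15 (65.2%) had at least 1 FPKM, close to the 68.9% of all genes. The summed level of the list ran from 525 to 615 FPKM between wells, with a median of 573 FPKM, which was 0.108% ± 0.00946 of all FPKM. VIM (vimentin) had 163, 183, 184, 171 and 161 FPKM, and TAGLN, an actin-binding protein, and SPARC, a matrix glycoprotein, had 111 ± 16.9 and 106 ± 9.43 FPKM. The type I collagen genes COL1A1 and COL1A2 had 47.1 ± 12.3 and 30.5 ± 3.78 FPKM, and COL1A1 was highest in well 4 (64.9 FPKM) and lowest in well 5 (32.8 FPKM). In contrast COL3A1, which fibroblasts express beside type I collagen, came to 12 reads over all wells. POSTN had 0.220 ± 0.0759 FPKM, PDGFRA 0.554 ± 0.0787 FPKM and S100A4 0.0527 FPKM, and the matrix proteoglycans DCN and LUM were listed at 0. Mouse feeder cells were in each well, and the sources used here do not say how reads of mouse origin were handled. Their part in the values of genes such as VIM and COL1A1 was not tested.

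The FGF pathway was present from receptor to feedback inhibitor, with 21 of 23 measured genes at 1 FPKM or more. FGFR2 and FGFR1 had 53.1 ± 5.61 and 43.2 ± 3.46 FPKM. FGFR2 held 53.0% ± 3.69 of the FPKM of the FGF receptor genes and exceeded FGFR1 in all 5 wells, by as little as 48.4 against 47.5 FPKM in well 1. FGFR3 and FGFR4 had 1.62 ± 0.278 and 2.08 ± 0.449 FPKM. The ligand genes were lower, with FGF8 at 4.89 ± 1.60 FPKM, FGF1 at 4.52 ± 0.686 FPKM and FGF19 at 1.75 ± 0.458 FPKM. FGF13, an intracellular relative that is not a receptor ligand, had 13.2 ± 1.21 FPKM. Targets and inhibitors of ERK signalling were well represented, with the ETS factors ETV4 at 48.2 ± 6.58 and ETV5 at 34.0 ± 4.27 FPKM and the Sprouty genes SPRY2, SPRY1 and SPRY4 at 39.1 ± 1.90, 31.6 ± 2.62 and 30.3 ± 1.41 FPKM.

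For the TGF-beta superfamily 31 of 36 measured genes were present. The ligand NODAL had 24.6, 26.9, 22.9, 28.9 and 27.1 FPKM, a narrow range, and its inhibitors LEFTY2 and LEFTY1 had 48.9 ± 5.85 and 12.6 ± 2.75 FPKM. LEFTY1 was lowest in well 1, at 8.21 FPKM, and 11.8 FPKM or more in the others. BMP4 had 25.6 ± 4.11 FPKM, while BMP2 had 0.240 ± 0.0906 FPKM. Of the receptors, BMPR2, BMPR1A and the activin and NODAL receptor ACVR1B had 33.4 ± 2.88, 32.6 ± 8.83 and 21.9 ± 2.77 FPKM. TGFBR1 had 24.8 ± 4.42 FPKM and its partner TGFBR2 2.65 ± 0.315 FPKM. FST (follistatin), an activin inhibitor, had 31.4 ± 4.34 FPKM, and NOG (noggin), a BMP inhibitor, came to 4 reads over all wells.

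WNT signalling genes were present in 25 of 43 cases (58.1%, against 68.9% of all genes), and the secreted antagonist SFRP1 was by far the highest. It had 448, 395, 513, 482 and 417 FPKM, against 91.4 ± 11.1 FPKM for the receptor FZD5 and 90.8 ± 10.0 FPKM for CTNNB1 (beta-catenin). The nuclear repressor TCF7L1 had 81.0 ± 4.30 FPKM, and its relative LEF1 had 0.236 ± 0.0796 FPKM. WNT5A was the highest of the ligands on the list with 6.28 ± 0.597 FPKM, and WNT3A, WNT6 and WNT11 were listed at 0. A list of other growth factor receptors also counts ligands and intracellular signalling proteins. On it 34 of 43 measured genes (79.1%) were present, against 68.9% of all genes. The insulin-like growth factor receptor IGF1R had 60.4 ± 3.72 FPKM, ERBB2 40.8 ± 5.35 FPKM, IGF2R 35.6 ± 3.60 FPKM and ERBB3 23.9 ± 1.71 FPKM. EGFR, of the same family as ERBB2, had 0.460 ± 0.127 FPKM. LIFR, the receptor of a cytokine that sustains mouse stem cells, had 7.63 ± 0.952 FPKM. IGF2, an imprinted growth factor gene, had 0.399 ± 0.144 FPKM, and SHH was listed at 0.

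Glycolytic genes ranked high, with 32 of 39 measured genes present and 14 at 100 FPKM or more. LDHB, a lactate dehydrogenase subunit, had 2094, 2092, 2518, 1847 and 2357 FPKM and exceeded LDHA (636 ± 98.2 FPKM) in all wells, with 77.4% ± 2.02 of their joint FPKM. GAPDH stood at 1577 ± 125 FPKM, PGAM1 at 879 ± 161 FPKM, ALDOA at 400 ± 55.7 FPKM and PKM, a pyruvate kinase, at 419 ± 54.5 FPKM. Glycolytic genes, GAPDH and LDHB among them, have many processed copies, so these levels too are uncertain. The abundant glucose transporter genes were SLC2A3 with 262, 466, 424, 311 and 348 FPKM and SLC2A1 with 319, 264, 244, 287 and 243 FPKM. SLC2A3 was the higher in wells 2 to 5 and SLC2A1 in well 1, and SLC2A2 and SLC2A4 stayed below 0.1 FPKM. HK2 held 65.9% ± 1.40 of the hexokinase FPKM at 62.9 ± 4.78 FPKM, with HK1 at 31.5 ± 4.30 FPKM.

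HIF1A prevailed among the oxygen-regulated alpha subunits of hypoxia-inducible factor. It had 109, 85.6, 132, 121 and 106 FPKM, while EPAS1 (HIF-2 alpha) had 0.375 ± 0.0611 FPKM, and HIF1A held 86.1% ± 3.11 of the FPKM of the 3 alpha subunit genes. HIF3A made up most of the remainder with 17.2 ± 3.31 FPKM. In the hypoxia list 23 of 25 measured genes were present. BNIP3, a mitophagy receptor induced by low oxygen, had 634, 662, 750, 685 and 658 FPKM, and its relative BNIP3L had 86.9 ± 10.6 FPKM. STC1, a secreted glycoprotein, had 29.3 ± 4.79 FPKM, EGLN1, an oxygen-sensing prolyl hydroxylase, 30.7 ± 4.32 FPKM and VEGFA 16.9 ± 1.19 FPKM. EPO was low, with 11, 4, 3, 2 and 1 reads in wells 1 to 5, and well 1, not the deepest well, held most of them.

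Cell cycle genes were present in 30 of 35 cases, and 4 of the 5 genes under 1 FPKM were inhibitors of cyclin-dependent kinases. TOP2A, a topoisomerase of dividing cells, had 444 ± 46.1 FPKM, MKI67 142 ± 21.6 FPKM and CCNB1 (cyclin B1) 167 ± 9.09 FPKM. CCND2 had 143, 168, 182, 196 and 162 FPKM and made up 86.7% ± 2.19 of the FPKM of the D-type cyclin genes, with CCND1 at 21.0 ± 2.52 FPKM. MYC had 47.6 ± 7.24 FPKM, 72.7% ± 4.28 of the FPKM of the MYC family genes. CDKN1A (p21), which halts the cycle when induced, had 0.455 ± 0.125 FPKM. The INK4 inhibitors CDKN2A, CDKN2B and CDKN2C had 0.198 ± 0.119, 0.0802 ± 0.0618 and 0.0211 FPKM, whereas CDKN1B (p27) had 28.6 ± 3.90 FPKM and CDKN2D 12.6 ± 1.91 FPKM.

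On a list of DNA and histone methylation genes, which also counts deacetylases and chromatin remodellers, 33 of 34 were present, the exception being DNMT3L. DNMT3B held 73.8% ± 2.16 of the DNA methyltransferase FPKM, DNMT3A 16.6% ± 1.11 and DNMT1 9.61% ± 1.18. The histone demethylases KDM1A and KDM5B had 162 ± 11.5 and 107 ± 12.6 FPKM, and JARID2, a partner of Polycomb repressive complex proteins, had 121 ± 8.15 FPKM. The Polycomb methyltransferase EZH2 had 49.9 ± 6.84 FPKM and its relative EZH1 4.73 ± 0.516 FPKM.

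Nuclear receptors, the ligand-controlled transcription factors through which many hormones and foreign compounds act, were present in 21 of 45 measured cases. That was 46.7%, against 68.9% of all genes, and only 3 had 10 FPKM or more. Those 3 were orphan receptors, NR2C1 with 19.2, 15.9, 19.1, 19.0 and 15.7 FPKM, NR2F6 with 16.9, 14.1, 10.3, 13.5 and 16.1 FPKM and NR2C2 with 11.8, 9.90, 11.7, 10.7 and 9.82 FPKM. Their wells overlapped between NR2F6 and each of the others. RXRA was not among the 45 measured genes. RXRB, a common partner of many receptors, came next with 7.34 ± 0.619 FPKM, and its wells overlapped with those of HNF4G. Below it lay 4 genes whose means differed by less than the SD of any of them, so that their order could not be read. These were HNF4G (6.61 ± 0.785 FPKM), RARA (6.56 ± 1.05 FPKM), a retinoic acid receptor, NR5A2 (6.50 ± 0.677 FPKM), which can stand in for POU5F1 in reprogramming, and PPARD (6.31 ± 0.878 FPKM).

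**Figure D3:**
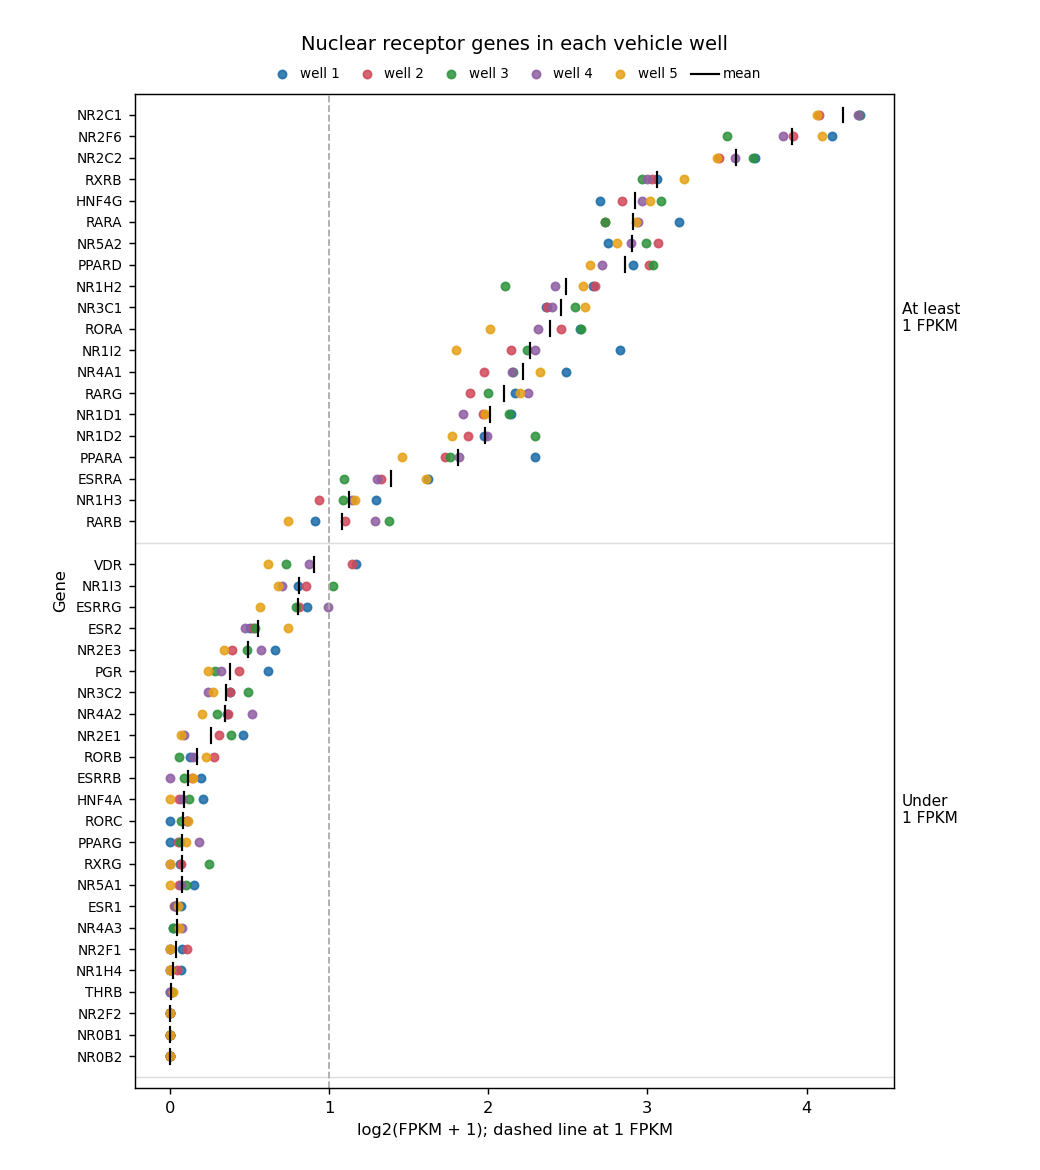
log2(FPKM + 1) of 44 of the 45 measured nuclear receptor genes in each of the 5 vehicle wells (colours), with the mean as a black bar and a dashed line at 1 FPKM. The upper block holds 20 genes that averaged 1 FPKM or more; PPARG, ESR1 and THRB lie near 0 in every well, and NR2F2, NR0B1 and NR0B2 were listed at 0.

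Receptors of steroids ranged from low to near 0. NR3C1, the glucocorticoid receptor, had 4.14, 4.18, 4.85, 4.29 and 5.09 FPKM. ESR2 (estrogen receptor beta) had 0.419, 0.439, 0.448, 0.385 and 0.676 FPKM, below the threshold in every well. ESR1 (estrogen receptor alpha) came to 2, 1, 1, 1 and 1 reads in wells 1 to 5, and the membrane receptor gene GPER had 0.543 ± 0.148 FPKM. PGR, the progesterone receptor, had 0.307 ± 0.142 FPKM.

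The 3 PPAR genes, receptors of fatty acids, were unequal. PPARD held 70.8% ± 5.55 of their FPKM and was the highest in all 5 wells. PPARA had 2.57 ± 0.797 FPKM. PPARG came to 0, 1, 1, 3 and 1 reads, which left it at 0.0579 FPKM. Xenobiotic receptors were at low levels. NR1I2 (PXR) had 6.10, 3.42, 3.73, 3.91 and 2.48 FPKM, highest in well 1 and lowest in well 5, and NR1I3 (CAR) had 0.766 ± 0.174 FPKM. AHR, the receptor of dioxins, had 8.91, 6.04, 6.50, 6.73 and 4.92 FPKM with the same wells at its ends, and its partner ARNT had 18.7 ± 3.78 FPKM. AHRR, the repressor that AHR induces, had 0.191 ± 0.0870 FPKM. The oxysterol receptors NR1H2 and NR1H3 had 4.68 ± 0.868 and 1.19 ± 0.194 FPKM. RARG and RARB, the other retinoic acid receptors, had 3.31 ± 0.441 and 1.15 ± 0.383 FPKM. VDR, the vitamin D receptor, fell just short of the threshold with 0.896 ± 0.323 FPKM, and THRB, a thyroid hormone receptor, came to 3 reads over all wells. THRA, the other thyroid hormone receptor gene, was not among the measured genes. Chaperones and coregulators were abundant by comparison, with PTGES3 (p23) at 127 ± 14.4 FPKM, FKBP4 at 60.3 ± 7.78 FPKM and the corepressor NCOR1 at 48.7 ± 5.92 FPKM.

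Cytochrome P450 genes were present in 17 of 40 measured cases, 11 of them at 2 FPKM or more, on a list that also counts their reductase. That was 42.5% present, against 68.9% of all genes. CYP2S1, a P450 of epithelia outside the liver, led with 62.6, 43.7, 45.6, 56.6 and 48.4 FPKM, highest in wells 1 and 4. CYP51A1, a sterol demethylase of cholesterol synthesis, had 23.6 ± 3.28 FPKM, CYP20A1 17.7 ± 1.65 FPKM and POR, the electron donor of microsomal P450s, 11.5 ± 0.790 FPKM. CYP26A1, which degrades retinoic acid, had 5.15, 6.78, 6.90, 4.85 and 6.30 FPKM. Genes of foreign compound oxidation were low, with CYP3A5 at 1.75 ± 0.180 FPKM, CYP1B1 at 1.52 ± 0.443 FPKM and CYP1A1, the classical AHR target, at 0.301, 0.444, 0.298, 0.461 and 0.539 FPKM, below the threshold in every well. CYP2C8, a liver enzyme, was near 0 (0.0267 FPKM).

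Among 49 measured genes of conjugation and transport 26 were present (53.1%, against 68.9% of all genes). GSTP1, a glutathione transferase, had 613, 607, 328, 368 and 664 FPKM, and its wells fell apart, with wells 3 and 4 well below the others, the same wells that were lowest in ribosomal protein share. AKR1B1, an aldose reductase, had 140 ± 26.1 FPKM, and the microsomal glutathione transferases MGST3 and MGST1 had 94.5 ± 8.73 and 78.8 ± 12.0 FPKM. The efflux pump ABCC3 had 27.2, 22.0, 20.8, 9.41 and 13.6 FPKM, lowest in wells 4 and 5. GSTT2 was erratic, with 14.1, 0.00181, 3.05, 3.29 and 16.9 FPKM; it has a near-identical neighbouring copy in primate genomes, so its split values are uncertain. The pump ABCB1 came to 31 reads over all wells, and UGT1A1, the bilirubin glucuronosyltransferase, and SLCO1B1, a liver uptake carrier, were listed at 0.

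Genes of steroid and thyroid hormone handling were present in 15 of 30 cases (50%, against 68.9% of all genes). Of the enzymes between cholesterol and sex steroids, CYP11A1, CYP17A1, CYP19A1, HSD3B1 and HSD3B2 were under 1 FPKM. The 17-beta hydroxysteroid dehydrogenase genes were split. HSD17B10 and HSD17B7 had 22.5 ± 4.25 and 12.0 ± 1.80 FPKM, and HSD17B1 and HSD17B3 had 0.359 ± 0.170 and 0.372 ± 0.170 FPKM. STAR, which carries cholesterol into mitochondria, had 7.69, 7.05, 7.94, 7.37 and 6.95 FPKM, a narrow range. FDX1, which passes electrons to mitochondrial P450s, had 24.2 ± 2.92 FPKM, and SRD5A1, a steroid 5-alpha reductase, 4.22 ± 1.02 FPKM. In contrast CYP11A1, the side-chain cleavage enzyme, came to 5, 6, 3, 3 and 2 reads in wells 1 to 5, CYP17A1 to 11 reads over all wells, and CYP19A1 (aromatase) had 0.0125 FPKM. HSD3B1 and HSD3B2 had 0.0104 and 0.00973 FPKM. The deiodinase genes DIO1, DIO2 and DIO3 had 0.498 ± 0.193, 0.281 ± 0.0738 and 0.386 ± 0.0698 FPKM.

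Well-to-well spread was small for most genes. Over the 11051 genes of at least 1 FPKM the median SD of log2(FPKM + 1) between the 5 wells was 0.176, and the median coefficient of variation of the FPKM was 13.8%. The median SD was 0.192 for genes of 1 to 5 FPKM, 0.164 for genes of 10 to 50 FPKM and 0.208 for genes of at least 100 FPKM, so the most abundant genes were not the steadiest. The median SD over the 5938 genes at 10 FPKM or more in vehicle was 0.169 in the vehicle wells. On the same genes it was 0.156 with atrazine, 0.126 with DEHP, 0.129 with PFOA, 0.174 with tributyltin and 0.172 with bisphenol A. Genes that varied between vehicle wells also tended to vary between wells of the other plates, with a Spearman correlation across genes of 0.41 to 0.54, a description over genes that share libraries and are not replicates.

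The steadiest genes of at least 10 FPKM changed by a few percent between vehicle wells. ABI1, an adaptor of actin assembly, had 25.0, 25.2, 24.8, 25.5 and 25.3 FPKM, an SD of 0.0154 on the log2(FPKM + 1) scale. PPP2R3C, a phosphatase subunit, CCNT2, a cyclin of transcription elongation, OSGEPL1, KANK2, NUP43, a nuclear pore protein, FAM213A, VPS4B, an ATPase of membrane scission, SEMA6A, PNMAL1, GMPPA and CUL4A, a ubiquitin ligase scaffold, followed with SDs of up to 0.0323. SEMA6A, a membrane semaphorin, was the most abundant of the 12, with wells between 114 and 120 FPKM. In the compound groups, which had no share in choosing them, only 8 to 10 of the 12 had an SD below the group's median. NANOG had an SD of 0.0906 on the same scale, POU5F1 0.27.

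**Figure D4:**
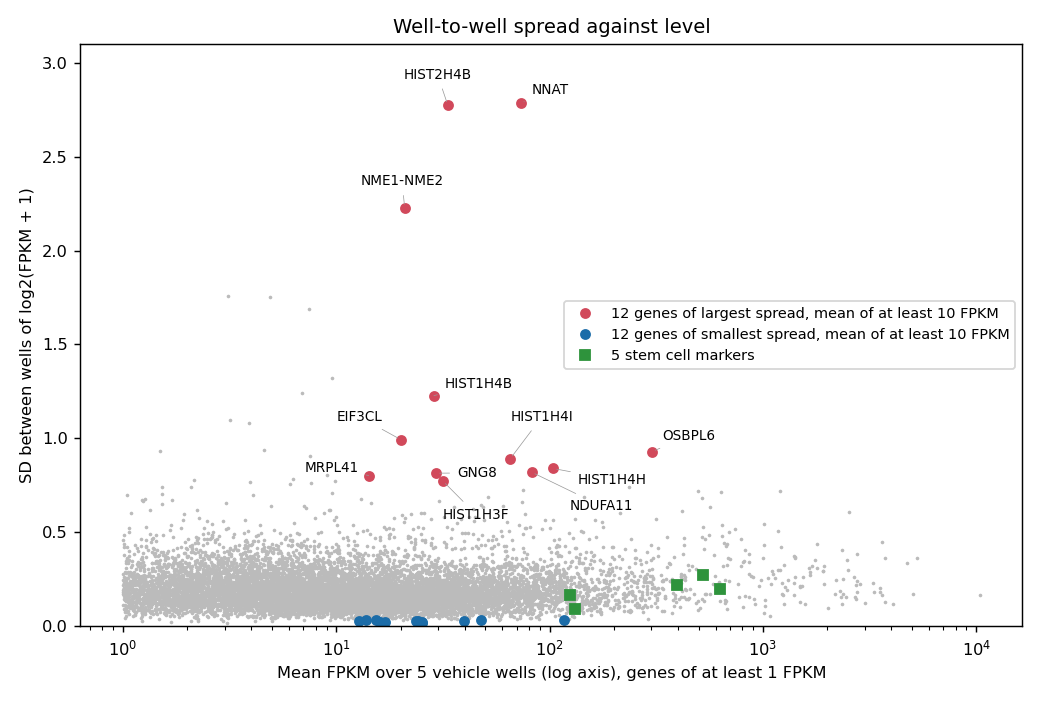
SD of log2(FPKM + 1) between the 5 vehicle wells (y axis) against the mean level (x axis, FPKM, log scale) for the 11051 genes of at least 1 FPKM. Red and blue points mark the 12 genes of largest and smallest spread among genes of at least 10 FPKM, and green squares mark POU5F1, NANOG, SOX2, LIN28A and DNMT3B, which lie within the bulk of the genes; NNAT and HIST2H4B stand highest.

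At the other end 12 genes had SDs from 0.77 to 2.78. NNAT (neuronatin), an imprinted gene that encodes a small membrane protein, had 96.9, 1.80, 176, 3.55 and 87.6 FPKM in wells 1 to 5. Wells 2 and 4 were far below the others, though above 1 FPKM, and well 3 was 97.8 times well 2. In the macaque RefSeq annotation (assembly T2T-MMU8v2.0) NNAT lies inside the gene BLCAP, and BLCAP did not share the pattern, with 40.7, 51.7, 41.3, 38.9 and 43.5 FPKM. NNAT also ran from 10.3 to 312 FPKM between wells with atrazine, from 8.59 to 186 FPKM with tributyltin and from 20.1 to 294 FPKM with bisphenol A. The low values came from 1 well in each of these groups, and with DEHP and PFOA the lowest wells had 162 and 64.6 FPKM.

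The other genes of large spread were of several kinds. HIST2H4B (112, 37.9, 1.66, 15.2 and 0.0277 FPKM), HIST1H4B, HIST1H4I and HIST1H4H are copies of the gene of histone H4, HIST1H3F is a copy of the gene of histone H3, NME1-NME2 is a readthrough of a pair of neighbouring genes, and EIF3CL is a near-copy of EIF3C. The labels do not say how reads shared with other genes were counted, so these values are uncertain as far as the counting could split such reads. NDUFA11, a subunit of respiratory complex I, had 104, 121, 38.1, 39.8 and 109 FPKM, and MRPL41, a mitochondrial ribosomal protein, 18.7, 20.5, 7.12, 5.79 and 18.8 FPKM. Both were lowest in wells 3 and 4, as were HIST1H4B, HIST1H4I, HIST1H4H and HIST1H3F and the ribosomal protein, respiratory chain and histone shares. GNG8, a G protein gamma subunit, had 60.3, 21.9, 33.8, 14.4 and 16.4 FPKM, highest in well 1. OSBPL6, an oxysterol-binding protein, had 457, 388, 407, 132 and 125 FPKM, so that wells 4 and 5 lay apart from wells 1 to 3.

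Some of these 12 genes also differed by replicate number in the compound libraries, which had no share in choosing them. All 12 genes lay in the top 10% of genes by SD in each of the 5 compound groups. In the 24 compound libraries OSBPL6 was likewise low in numbers 4 and 5, between 75.4 and 177 FPKM, and high in numbers 1 to 3, between 322 and 1125 FPKM, with no overlap. A limma fit over these 24 libraries, with group and replicate number as factors, called the number for 3822 of 11077 genes, 34.5% of those tested, at an adjusted p under 0.05. Of the 12 genes of largest vehicle spread 9 were called, with OSBPL6 having the smallest adjusted p (F = 66.7, Benjamini-Hochberg adjusted p = 7.25e-08). NNAT (adjusted p = 0.260), HIST2H4B (adjusted p = 0.522) and GNG8 (adjusted p = 0.883) were not. Of the 12 genes of smallest spread 3 were called, OSGEPL1 (adjusted p = 0.0121), NUP43 (adjusted p = 0.0320) and FAM213A (adjusted p = 0.0202), against 34.5% of all genes. The fit held no vehicle wells, so it does not show that their spread followed the number. NDUFA11 had 121 FPKM in vehicle well 2 but 29.1 to 62.4 FPKM in the compound libraries of number 2. MRPL41 had 20.5 FPKM in vehicle well 2 against 2.71 to 13.3 FPKM in those libraries. The labels do not say what the number marks.

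**Figure D5:**
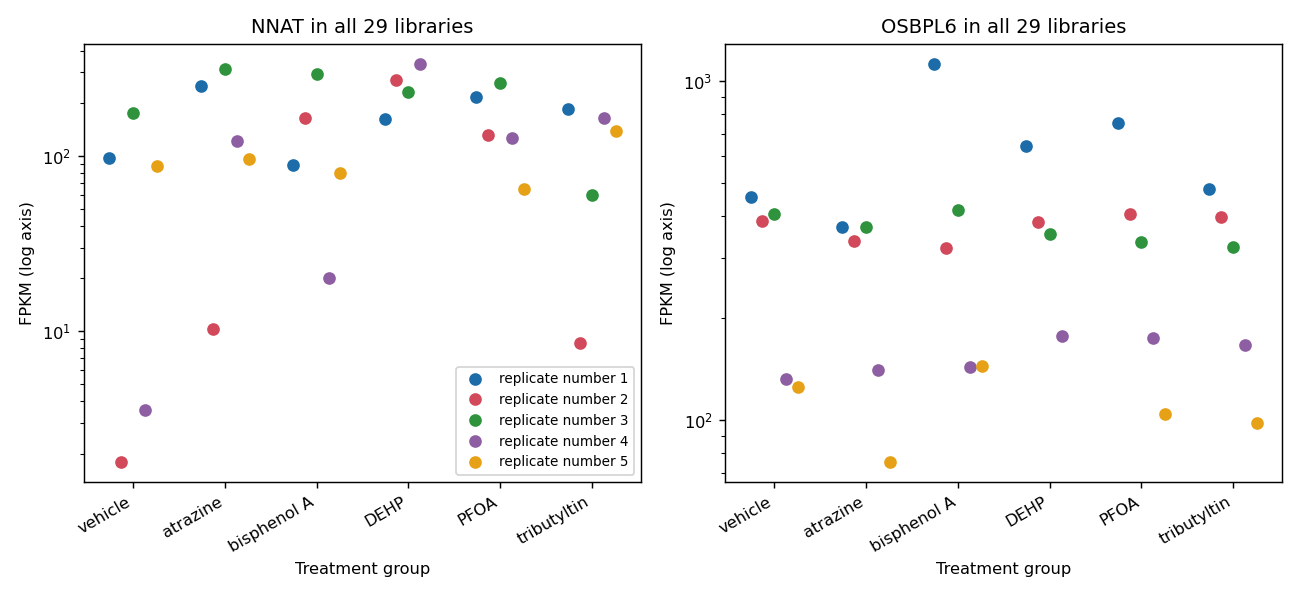
FPKM (log axis) of NNAT and OSBPL6 in each of the 29 libraries, by treatment group and coloured by replicate number. OSBPL6 was below 180 FPKM in numbers 4 and 5 and above 300 FPKM in numbers 1 to 3 in every group. The low NNAT wells carried number 2 or 4, but other wells of these numbers were high, such as DEHP number 4 at 336 FPKM.

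Set against the mean of the 5 compound groups, the vehicle wells differed in few genes. Of 11080 genes tested with limma on log2(FPKM + 1), 28 were higher in vehicle (0.253%) and 0 were lower (0%), at a Benjamini-Hochberg adjusted p under 0.05, with 590 higher and 208 lower at an unadjusted p under 0.05. STC1 had 31.9, 34.5, 30.9, 26.5 and 22.4 FPKM in the vehicle wells, whereas the compound groups averaged 9.72 to 26.5 FPKM, a log2 difference of 0.80 (SE 0.085, adjusted p = 1.39e-06). RIMKLA, which makes the neuropeptide N-acetylaspartylglutamate, had 6.60, 6.77, 7.26, 6.94 and 4.71 FPKM, against group means of 1.81 to 5.24 FPKM (log2 difference 0.78, SE 0.078, adjusted p = 1.18e-06). EGLN1 had 28.3, 32.5, 37.0, 30.2 and 25.6 FPKM, against group means of 14.9 to 27.5 FPKM (log2 difference 0.63, SE 0.076, adjusted p = 1.32e-05). The lowest vehicle well lay below the highest compound library for each of these 3 genes, so the groups overlapped, and all 5 vehicle wells lay above the median of the compound libraries. The tight junction gene CLDN14, NRN1, which promotes neurite growth, PFKFB4, a regulator of glycolysis, SAP30, of a histone deacetylase complex, HK2, SLC2A1, FAM162A, the histone demethylase KDM3A and UPRT were also higher, by 0.44 to 0.85. Of 13 alternative settings UPRT lost its call in 6 and KDM3A in 2. The count of 28 was 13 without vehicle well 2, 14 without well 3, 47 with library weights and 74 (67 higher and 7 lower) without the bisphenol A libraries. With the replicate number as a block it was 104 (0.939%), 97 of them higher and 7 lower. Since all 5 compounds are compared with the same 5 wells of 1 plate, a plate difference cannot be told apart from one of treatment.

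By list, 4 of 32 glycolysis genes and 3 of 22 hypoxia genes were higher in vehicle, against 0.253% of all genes, with median log2 differences of 0.13 and 0.12 against 0.01 for all genes tested. The lists were chosen with earlier results of these data known, so these counts are a description and not a test. No gene of the pluripotency, lineage, fibroblast, receptor, P450, conjugation, steroid or signalling lists, or of the histone, ribosomal protein or respiratory chain lists, was called in either direction. Median log2 differences were 0.04 for the 24 core pluripotency genes tested, -0.03 for 21 nuclear receptor genes, -0.07 for 16 P450 genes and 0.18 for 62 histone genes. In simulated data of this size the fit called 44% of changes of 0.3 and 96% of changes of 0.6 on the log2 scale. That noise was drawn independently for each gene and library, without differences by replicate number. The shares called in the real data may be lower, so a gene left uncalled may still differ by either amount.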

How the data were processed

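RNA of whole wells was amplified from 100 ng and sequenced as 50 nt single-end reads, per the labels' protocols. The deposited table holds FPKM per gene, which the authors had scaled for gene length and library size. The submitters' processing notes name TopHat2 2.1.1, Cuffdiff 2.2.1 and SAMtools, and they also list GRCm38.p5, a mouse build, and no role for it. A macaque build is not given in these sources. No coordinates were used.

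Levels are means and SDs of FPKM over the 5 vehicle wells, and a gene was called present at a mean of at least 1 FPKM. Spread is the SD of log2(FPKM + 1), with a pseudocount of 1 FPKM, which understates changes of low genes. Reads of low genes were inferred from the steps between their values; 1480 of 2506 such genes (59.1%) gave whole numbers within 0.1 in all wells, and the method was tested on simulated data. Read counts given for a gene come from these. The comparisons used limma's two-sided moderated test with a trend (limma 3.58.1, R 4.3.3) and Benjamini-Hochberg adjustment over all genes that averaged 1 FPKM or more in the libraries fitted, over all 29 libraries for vehicle against compounds, and tested on simulated data. No count model was used.

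Gene lists, members and tests were chosen with earlier results of these data known; the lists of imprinted, histone and respiratory chain genes and the test of the replicate number were added after the data were seen. Named genes are the 25 most abundant, the stem cell markers, list members, the 12 genes of largest and of smallest spread among those of at least 10 FPKM, and the 12 largest called differences; BLCAP was added after its neighbour was seen. Some list members are counted in their lists but not reported here by name. Alternatives were other thresholds, pseudocounts, filters, scalings and weights, the replicate number as a block, and leaving out each vehicle well or the bisphenol A libraries.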

Additional observations from a re-analysis of the deposited data

Results flagged for a closer look

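Among 286 named genes, 22 had 1 vehicle well whose gap to the next well was more than 0.71 of the whole range of the 5 wells, Dixon's 95% critical value for 5 samples. Chance flags about 1 in 20 groups. The shares of summed FPKM of the gene groups held no such well, but the share of TPT1 did, with 2.204% in well 5, the highest. The well that stood apart was well 1 for 10 genes, well 5 for 7, well 4 for 3, and wells 2 and 3 for 1 each.

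Well 1 was the highest for the homeobox and HMG factors PAX6 (0.770 FPKM) and SOX11 (45.5 FPKM), the forkhead factor FOXD3 (4.21 FPKM), the trophoblast factor GCM1 (5.02 FPKM), the germline gene DPPA3 (6.25 FPKM), the hormone gene EPO (0.973 FPKM) and S100A4 (0.264 FPKM). It was the lowest for the chaperone HSP90AB1 (1717 FPKM), the receptor IGF2R (29.3 FPKM) and FGF13 (11.1 FPKM). Well 5, the shallowest, was the highest for ESR2 (0.676 FPKM), FGFR3 (2.11 FPKM) and NUP43 (40.8 FPKM), and the lowest for LEF1 (0.0963 FPKM), FGF1 (3.30 FPKM), RIMKLA (4.71 FPKM) and JARID2 (107 FPKM). Well 4 was the highest for SPRY4 (32.7 FPKM) and for the steroid dehydrogenase genes HSD3B1 (0.0521 FPKM) and HSD3B2 (0.0487 FPKM), which were listed at 0 in the other wells. Well 2 alone held MESP1 (0.116 FPKM), and well 3 was the lowest for DIO3 (0.264 FPKM). In S100A4, MESP1, HSD3B1 and HSD3B2 the other wells were all listed at 0, so the gap equalled the range and the flag was fixed in advance.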

How the results depend on the processing

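Levels of the 286 named genes moved by less than 1 SD under median-of-ratios scaling. Leaving out 1 well moved the mean by over 1.5 times for 3 of the 209 named genes at 1 FPKM or more, HIST2H4B (13.7 FPKM without well 1), NNAT (47.4 FPKM without well 3) and MKRN3 (0.680 FPKM without well 2), and for 13 of the 77 below. Without well 2 the means of MKRN3, KLF5 and AFP fell under 1 FPKM, that of AFP also without well 4. Without ribosomal protein genes the 100 most abundant genes held 26.3% of the summed FPKM instead of 36.8%. With a threshold of 2 FPKM in place of 1, the present genes numbered 2 instead of 6 for endoderm, 5 instead of 8 for germ cells and 11 instead of 17 for cytochromes P450. The median SD between wells ranged from 0.151 (without vehicle replicate 1) to 0.185 when 1 well was left out. The 28 genes called against the compounds became 13 without vehicle replicate 2 and 14 without replicate 3, up to 33 without replicate 1, 47 with library weights and 74 (67 higher, 7 lower) without the bisphenol A libraries; the cause was not tested.

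With the replicate number as a block 104 genes (0.939%) were called, 97 higher and 7 lower. Across genes, each vehicle well's deviation from its group mean was correlated with the mean deviation of the compound libraries of the same number. The correlation was -0.12 for well 2 and between 0.38 and 0.64 for the others. For 4 of 5 numbers the compound mean correlated best with the vehicle well of its own number, a hint from the data and not from the design. Of single libraries, 3 of 5 did so with atrazine, bisphenol A and PFOA, 3 of 4 with DEHP and 4 of 5 with tributyltin. The labels give the number no meaning and well 2 fell short of the 0.1 asked of every pair, so the comparison was kept without the block. The depth, unknown in absolute terms, limits what can be said of genes with few reads, which are not shown to be absent.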

Other observations

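Imprinted genes, which are expressed from the allele of 1 parent, were listed after the spread of NNAT had been seen. Of 22 such genes 19 had a vehicle mean of at least 1 FPKM, and the median SD of log2(FPKM + 1) between wells of those 19 was 0.173, close to the 0.176 of all genes of at least 1 FPKM. PEG10, a gene derived from a retrotransposon, had 81.4, 81.8, 85.6, 78.1 and 75.5 FPKM in wells 1 to 5. SNRPN, a splicing protein of the Prader-Willi region, had 188, 184, 160, 152 and 217 FPKM, and NDN, of the same region, 33.5 ± 3.62 FPKM (SD, n = 5). MEST had 38.9 ± 4.85 FPKM. NNAT, with an SD of 2.78, stood apart from these genes. The next in spread was MKRN3, with 0.290, 2.75, 0.774, 1.18 and 0.472 FPKM and an SD of 0.60, highest in well 2, where NNAT was lowest. GNAS, a G protein subunit gene, had the highest level of the list, 385 ± 43.4 FPKM.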
